A study of Mus musculus with 4 samples.

Results

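The regions described here are 507 sharp, well enriched CTCF peaks of mouse hippocampus, out of 14974 autosomal peaks (3.39%) and 15109 peaks in the whole list. They were chosen by 2 measured values of that list. The authors' peak score had to lie from 163 to 568, and the width had to be 473 bp or less. The score limits span the upper quartile up to just under the 95th percentile (568.6) of all scores, and the width limit is the median of all widths. Peaks on chromosome X were left out. The peaks came from 2 CTCF ChIP libraries and 2 input libraries (chromatin without immunoprecipitation) of hippocampus from C57/Bl mice. The series text counts a single input, where the sample labels name 2. No treatment or allele is given in the labels, and neither the age, the sex nor the number of animals is stated there. The 4 libraries entered a single combined peak list on the mouse build mm9. No value below therefore has a replicate error, and no test between samples was possible.

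CTCF, a protein with an array of zinc fingers, recognises a long DNA motif. Together with the ring-shaped cohesin complex it sets the ends of many chromatin loops, and it also acts as an insulator between neighbouring regulatory regions. In neurons it is needed for normal expression of many genes, among them the clustered protocadherins. In ChIP-seq, a factor that holds DNA at a single short site typically gives a narrow peak about the size of the sequenced fragments. Neighbouring sites or a broader region of contact widen the peak. Sequences and gene names are not shown, because the genome and gene annotation of mm9 were not used here.

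Sharp peaks were the minority at this level of enrichment. Of 3020 autosomal peaks in the score range, 507 were sharp (16.8%, Wilson 95% interval 15.5 to 18.2%) and 2513 were wider. From the other side, most narrow peaks were weak: of 7525 autosomal peaks at or under 473 bp, 7018 scored below 163 and 507 (6.74%) reached the range. None scored above 568. Sharp peaks had a median width of 430 bp, quartiles at 399 and 455 bp, and a minimum of 345 bp. The wide peaks had a median of 639 bp and reached 3376 bp. The smallest width in the list, 344 bp, was held by 564 autosomal peaks, none of which was a member, since the highest score among them was 159. These widths and scores are what the choice used, and they are a description only.

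**Figure D1:**
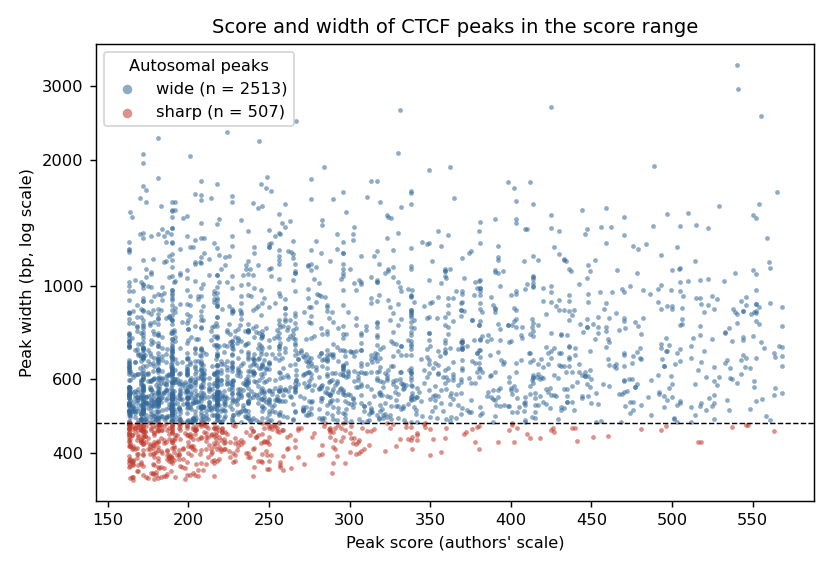
Width (bp, log scale) against the authors' score for each of the 3020 autosomal peaks in the score range, with the 507 sharp peaks in red, the 2513 wide peaks in blue and the width limit dashed. The sharp peaks thin out towards high scores, with a median score of 205 against 250 for the wide peaks.

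Within the range, sharp peaks lay mostly in its lower part. Their median score was 205 (interquartile range 180 to 253.5), against 250 (199 to 355) for wide peaks. When the 3020 peaks were divided into 3 bands of score, the sharp share was 25.3% at scores from 163 to 208, 17.1% from 209 to 297 and 7.59% from 298 to 568. At the edges of the rule, 28 members had widths of 469 to 473 bp and scores of 163 to 401. The 40 wide peaks at 474 to 478 bp scored 163 to 512. At the lower score limit, 51 members scored 163 to 167, and 39 peaks of like width scored 158 to 162. The limits thus cut through a continuous range of values.

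The sharp peaks with the highest scores lay on 5 chromosomes. The first was on chromosome 7 at 16705140 to 16705590, 451 bp wide with a score of 563. Its nearest neighbour was 16.1 kb away and scored 161. A peak on chromosome 9, from 46037995 to 46038461, reached 547, with a weak neighbour of score 73 at 4.47 kb. Chromosome 11 held 3 of the 8. The peak at 31900171 to 31900638 scored 546, with a neighbour of score 36 at 1.87 kb. The one at 113026339 to 113026799 scored 537, and the one at 60013282 to 60013746 scored 496 with a neighbour of score 78 at 1.72 kb. The remaining 3 were on chromosome 1 at 123464248 to 123464672 (score 518), chromosome 7 at 7230872 to 7231296 (score 516) and chromosome 13 at 55291616 to 55292069 (score 493). The chromosome 1 peak lay farthest from any other, with the nearest peak 119.6 kb away and only 2 peaks in its 1 Mb window, itself included. Of these 8 peaks, the nearest neighbour fell below the score range for all but the chromosome 7 peak at 7230872, whose neighbour 21.3 kb away scored 271 and was wide.

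Sharp peaks had fewer close neighbours than wide peaks of the same score range. Spacing was measured between midpoints, to the nearest autosomal peak of any score. A neighbour within 10 kb was found for 160 of the 507 sharp peaks (31.6%, Wilson 95% interval 27.7 to 35.7%) and for 1075 of the 2513 wide peaks (42.8%, 40.9 to 44.7%). Among all autosomal peaks the share was 43.1%, close to that of the wide peaks. The difference between sharp and wide was -11.2 percentage points (Newcombe 95% interval -15.6 to -6.63). The median distance to the nearest peak was 18.95 kb for sharp peaks and 13.6 kb for wide ones. These intervals cover counting error only, and since neighbouring peaks are not independent of each other they are too narrow.

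By midpoint distance, the shortfall lay under 5 kb. A neighbour within 5 kb was found for 71 sharp peaks (14.0%) and 706 wide peaks (28.1%), a difference of -14.1 points (-17.4 to -10.4). In the distance class of 1 to 2 kb the shares were 4.14% and 10.1%, and at 2 to 5 kb they were 6.71% and 14.1%. Up to 1 kb they were 3.16% and 3.82%, with an interval of the difference from -2.12 to 1.36 points. At 5 to 10 kb the order turned, with 17.6% of sharp and 14.7% of wide peaks, although the interval of that difference ran from -0.51 to 6.66 points. Sharp peaks were more often 10 to 50 kb from their nearest neighbour (43.6% against 35.3%, difference 8.25 points, 3.60 to 12.98). Each peak counts in 1 distance class only, so fewer peaks under 5 kb leave more for the farther classes. The higher shares beyond 5 kb are therefore no separate result. By 50 kb the cumulative shares had come together at 75.1% and 78.1%, a difference of -2.97 points (-7.21 to 0.96).

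**Figure D2:**
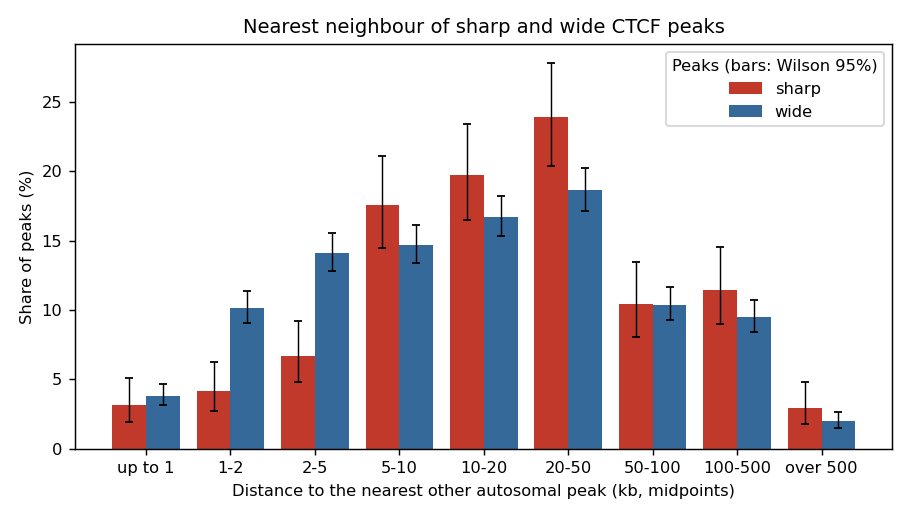
Share of the 507 sharp (red) and 2513 wide (blue) peaks whose nearest other autosomal peak lies in each class of distance between midpoints, in kb, with Wilson 95% intervals. Sharp peaks fall below wide ones at 1 to 2 kb (4.14% against 10.1%) and 2 to 5 kb (6.71% against 14.1%).

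A midpoint distance counts part of the peak's own width, so the gap between peak edges was measured as well. By gap, 32.9% of sharp and 43.9% of wide peaks had another within 10 kb, a difference of -10.99 points. Peaks nearly touching another, with a gap under 1 kb, made up 5.33% of sharp peaks and 12.4% of wide ones. When such neighbours did not count, the shares within 10 kb were 28.4% and 38.1%. When only a nearest peak at a gap of 1 to 10 kb counted, 27.6% and 31.6% remained, and the difference shrank to -3.94 points. For gaps under 1 kb it was -7.05 points (-9.17 to -4.43). Each peak counts by its nearest gap only, so a peak with a nearly touching neighbour cannot count at 1 to 10 kb. The split into -7.05 and -3.94 points therefore does not place the shortfall in nearly touching peaks. With nearly touching neighbours not counted, the difference was still -9.68 points. No 2 peaks of the list overlapped, and the smallest gap was 61 bp. Whether the caller split or joined neighbouring sites was not tested.

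The nearest peaks were weaker peaks in most cases, as for the wide group. Of the 507 nearest peaks, 350 (69.0%) scored below 163, against 74.8% of all autosomal peaks that did so. A wide peak of the range was nearest for 99 (19.5%), a peak above the range for 35 (6.90%) and another sharp peak for 23 (4.54%). The wide peaks had a like mix of nearest peaks, with 71.7% below the range and 6.41% above it. For the 160 sharp peaks with a neighbour within 10 kb, that neighbour had a median score of 105 and a median width of 473 bp, and it scored lower than the sharp peak in 126 cases (78.8%). For wide peaks this was so in 895 of 1075 cases (83.3%). Since the members were selected on high scores, a weaker neighbour is largely given by the rule. When only neighbours at or above the median score of the list were counted, 21.3% of sharp and 28.1% of wide peaks had one within 10 kb.

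Sharp peaks make up only 3.39% of the autosomal list, so few can neighbour each other. A sharp peak was the nearest for 4.54% of sharp and 3.30% of wide peaks, with an interval of the difference from -0.45 to 3.50 points. Along each chromosome, 488 pairs of successive sharp peaks had a median distance of 1771 kb, and 5 pairs lay within 10 kb. The closest was on chromosome 2, where a peak at 84728198 to 84728571 (score 169) and one at 84729061 to 84729514 (score 205) were 0.90 kb apart. On chromosome 11, peaks at 72079047 to 72079453 and 72080005 to 72080383 were 0.94 kb apart and had nearly equal scores of 187 and 190. A pair on chromosome 14, at 26316999 to 26317464 and 26317985 to 26318400, lay 0.96 kb apart with scores of 183 and 166. On chromosome 7, peaks at 148256188 to 148256625 (score 296) and 148257807 to 148258161 (score 172) were 1.58 kb apart. The fifth pair, on chromosome 6 at 108650555 and 108659546, was 9.0015 kb apart. All 5 pairs had no other peak between them.

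Spacing changed with width on both sides of the limit. Among peaks of the range, the share with a neighbour within 10 kb was 21.7% at 345 to 399 bp (n = 129), 34.9% at 400 to 473 bp (n = 378), 37.5% at 474 to 605 bp (n = 1065), 41.9% at 606 to 800 bp (n = 755), 45.2% at 801 to 999 bp (n = 341) and 58.5% above 1 kb (n = 352). The narrowest sharp peaks therefore stood lowest (Wilson 95% interval 15.5 to 29.6%). The interval at 400 to 473 bp, 30.3 to 39.9%, overlapped that of the next wider class, 34.6 to 40.4%. Against the wide peaks of up to 605 bp alone, the difference of the 507 sharp peaks was -5.91 points, smaller than against all wide peaks.

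**Figure D3:**
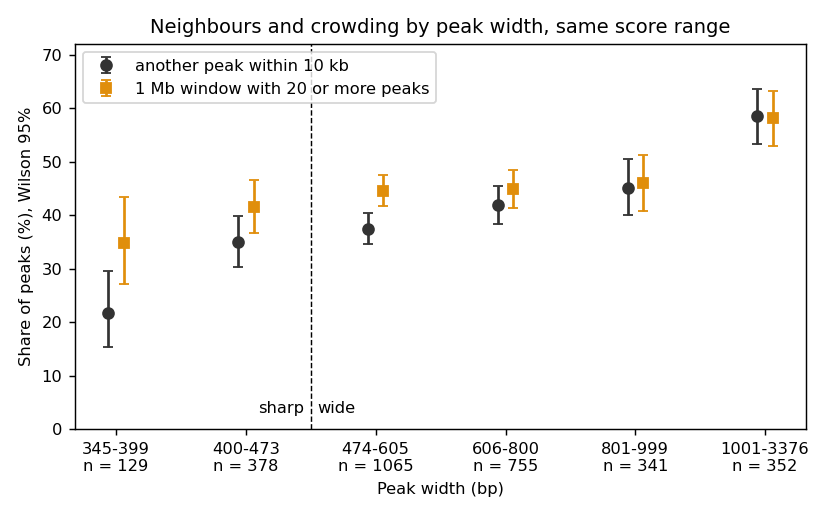
Share of score-range peaks with another peak within 10 kb (black) and in a 1 Mb window with 20 or more peaks (orange) by class of width in bp, with Wilson 95% intervals and the limit between sharp and wide dashed. Both shares are lowest at 345 to 399 bp (21.7% and 34.9%) and highest above 1 kb (58.5% and 58.2%).

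Within bands of like score the spacing difference had the same direction. In the band of scores from 163 to 208, 32.3% of sharp and 46.1% of wide peaks had a neighbour within 10 kb (difference -13.8 points, -20.2 to -7.01). From 209 to 297 the shares were 30.3% and 44.4% (-14.1 points, -21.5 to -6.00). From 298 to 568, with only 76 sharp peaks, they were 31.6% and 38.5%, and the interval of the difference, -16.8 to 4.63 points, included 0. With shares standardised to the same mix of bands, the difference was -11.6 points.

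Nor was a lower share of close neighbours particular to narrow peaks of this score range. At scores from 13 to 61, 46.7% of peaks at or under 473 bp had a neighbour within 10 kb, against 57.5% of wider ones. From 62 to 92 the shares were 37.4% and 49.0%, and from 93 to 162 they were 40.3% and 45.3%. The differences of -10.8, -11.6 and -5.07 points stood beside the -11.2 points of the range. The sharp peaks had the lowest share among the narrow peaks of these 4 bands, 31.6% (27.7 to 35.7%), although its interval touched that of the band from 62 to 92 (35.6 to 39.1%).

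Sharp peaks also lay less often in crowded stretches of the genome. A peak and its close neighbours mostly count in the same window, so crowding is not independent of spacing. A 1 Mb window was taken as crowded when it held 20 or more autosomal peaks, which was so for 235 of 1750 occupied windows. Such windows held 202 sharp peaks (39.8%, 35.7 to 44.2%) and 1176 wide peaks (46.8%, 44.9 to 48.8%), a difference of -6.95 points (-11.6 to -2.21). Of all autosomal peaks, 46.8% lay there, so the wide peaks matched the list. In windows with more than 30 peaks the shares were 16.96% and 22.1%. At the looser limit of 10 or more peaks they were 68.8% and 72.2%, and the interval of that difference, -7.85 to 0.92 points, included 0. At the sparse end, 88 sharp peaks (17.4%) lay in windows of 1 to 4 peaks, against 12.3% of wide peaks, a difference of 5.02 points (1.69 to 8.77). In all, 17 sharp peaks (3.35%) were the only peak of their window, against 2.11% of wide ones, with an interval of the difference from -0.16 to 3.26 points.

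The crowding difference was also taken within the bands of score. In the band from 163 to 208 it was -4.90 points (-11.6 to 2.03), from 209 to 297 it was -10.8 points (-18.7 to -2.43), and from 298 to 568 it was -9.79 points (-19.98 to 1.84). The intervals of the first and the last band included 0. Narrow peaks below the range also lay less often in crowded windows than wider ones of like score, by -4.58 points at scores from 13 to 61 and -4.74 from 62 to 92. From 93 to 162 the difference was -2.93 points, with an interval from -6.16 to 0.30. A lower share in crowded windows is therefore not shown to be particular to the sharp peaks.

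The spacing difference was seen in fuller windows. In windows of 1 to 9 peaks, 17.1% of sharp and 18.5% of wide peaks had a neighbour within 10 kb, a difference of -1.37 points whose interval, -7.28 to 5.80, included 0. In windows of 10 to 19 peaks the shares were 32.0% and 42.3% (-10.3 points, -18.3 to -1.58). In windows of 20 to 30 peaks they were 39.7% and 49.7% (-10.02 points, -19.3 to -0.12). In windows of more than 30 they were 46.5% and 66.2% (-19.7 points, -30.5 to -8.46). The change of the difference between these classes was not tested. Standardised to the same mix of window classes, the difference was -9.70 points.

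**Figure D4:**
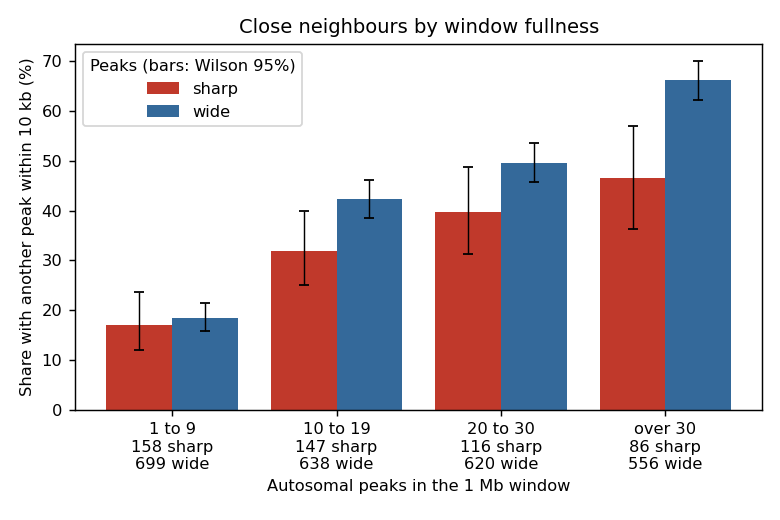
Share of sharp (red) and wide (blue) peaks of the score range with another peak within 10 kb, by the number of autosomal peaks in their 1 Mb window, with Wilson 95% intervals and the number of peaks under each class. The groups are close in windows of 1 to 9 peaks (17.1% and 18.5%) and farthest apart above 30 peaks (46.5% and 66.2%).

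The 507 sharp peaks lay in 404 of the 1750 occupied windows of 1 Mb, and the 2513 wide peaks in 990. Of the 404 windows, 328 held a single sharp peak (64.7% of all sharp peaks). Another 55 windows held 2 and 21 held 3 or more. In 96 windows there was a sharp peak and no wide peak of the range. Of the 235 crowded windows, 94 held no sharp peak. Since sharp peaks are only 3.39% of the autosomal list, such counts are largely given by their small number. The windows below were ranked by their content of sharp peaks, so their values are a description.

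The window with the most sharp peaks was on chromosome 7 from 148000001 to 149000000, with 5 sharp and 4 wide peaks of the range among 35 peaks. All 5 lay between 148256188 and 148414620, and their scores ran from 164 to 352. A window on chromosome 11 from 72000001 to 73000000 held 4 sharp peaks and no wide one among 17 peaks, and their scores were only 175 to 218. On chromosome 7 from 16000001 to 17000000 there were 4 sharp and 2 wide peaks among 12, among them the highest-scoring member (563). On chromosome 2, the window from 152000001 to 153000000 held 4 sharp among 25 peaks and the window from 167000001 to 168000000 held 4 sharp among 45. The sixth in rank, the first by position of those with 3 sharp peaks, was on chromosome 2 from 84000001 to 85000000, with 11 peaks and the closest pair of all. The 4 fullest windows of the list held 1 or 2 sharp peaks each. The one on chromosome 4 from 140000001 to 141000000 had 75 peaks, with 1 sharp of 11 in the score range (9.09%). The one on chromosome 11 from 117000001 to 118000000 had 67, with 2 sharp of 15 (13.3%). A window with 63 peaks on chromosome 8, starting at 122000001, had 1 sharp of 20 (5%). One with as many peaks on chromosome 17, starting at 27000001, had 1 sharp of 8 (12.5%).

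In the 21 windows with 10 or more peaks of the score range, the median sharp share was 10%. Over all autosomal peaks of the range it was 16.8%. These windows were picked for many peaks of the range, most of which are wide. Whether that choice lowers the share was not tested. The highest share was on chromosome 8 from 73000001 to 74000000, with 3 sharp of 11 (27.3%). Next was chromosome 5 from 130000001 to 131000000, with 3 of 12 (25%). A pair of windows on chromosome 11, from 98000001 and from 116000001, had 2 of 10 each (20%). In 3 of the 21 windows there was no sharp peak.

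The most isolated sharp peaks were surrounded by long stretches without peaks. On chromosome 6, the peak at 17256041 to 17256503 (score 170) had its nearest neighbour 4751 kb away. On chromosome 3, the peak at 45181944 to 45182369 (score 186) lay 3795 kb from the nearest. The next were on chromosome 14 at 112073933 to 112074287 (score 199, 2761 kb), chromosome 6 at 103462009 to 103462481 (score 296, 2251 kb) and chromosome 18 at 86879948 to 86880384 (score 339, 1759 kb). Each of the 5 was the only peak of its 1 Mb window. In total 15 sharp peaks (2.96%) and 50 wide peaks (1.99%) had no other within 500 kb, with an interval of the difference from -0.35 to 2.89 points.

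Sharp peaks were found on all 19 autosomes. To match the wide peaks, 9.02% of the sharp peaks would have had to lie on another autosome. Each autosome held 10 to 56 sharp peaks, and such small counts alone give a value above 0. The sharp share of score-range peaks was 17.0% ± 3.28 (SD over n = 19 autosomes). The Wilson interval held the overall 16.8% on 18 of 19. The exception was chromosome 4, with 24 sharp of 228 peaks (10.5%, 7.18 to 15.2%). Chromosome 19 had nearly the same share, 10.9%, from 10 sharp peaks (6.01 to 18.9%). The highest shares were on chromosome 14 (22.2%, 14.9 to 31.8%) and chromosome 7 (21.1%, 16.4 to 26.6%). With 19 intervals, 1 that misses the overall share is not by itself a difference.

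**Figure D5:**
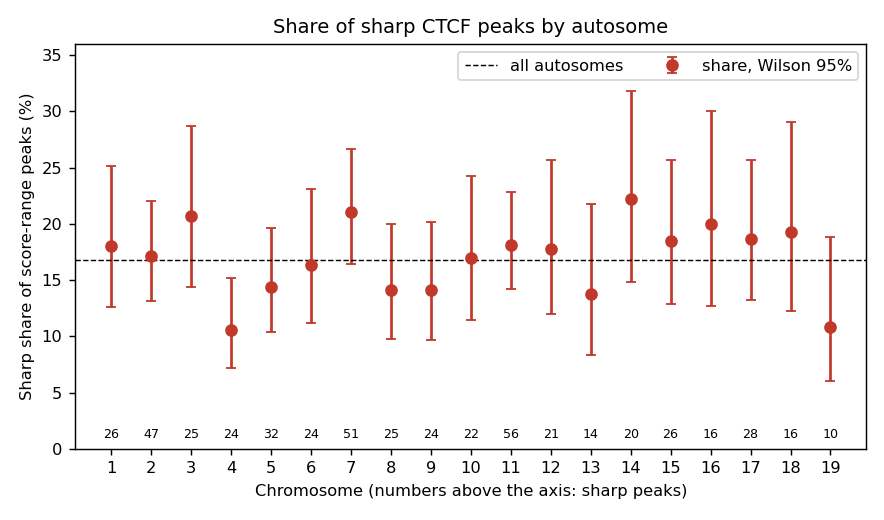
Sharp share (%) of the score-range peaks on each autosome, with Wilson 95% intervals, the share over all autosomes dashed and the number of sharp peaks printed above the axis. Only the interval of chromosome 4 (7.18 to 15.2%) does not hold the overall 16.8%.

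By density, chromosome 11 led with 56 sharp peaks, or 0.47 per Mb from its first to its last peak. Chromosomes 7 and 17 followed with 0.34 and 0.31 per Mb, against 0.21 over all autosomes. Chromosome 13 had the lowest density, 0.12 per Mb from 14 sharp peaks. The ratio of the highest to the lowest density was 3.94 for sharp and 3.56 for wide peaks. Across the 19 autosomes, the densities of sharp and wide peaks had a Pearson's r of 0.79 and a Spearman's rho of 0.61. Both come from the same libraries and spans, and the values are a description.

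The lower share of close neighbours appeared on most autosomes. It was lower for sharp than for wide peaks on 16 of 19, with a mean difference of -10.7 ± 11.1 percentage points (SD, n = 19 autosomes). Chromosome 17 had the widest gap, where 3 of 28 sharp peaks and 61 of 122 wide peaks had a neighbour within 10 kb, followed by chromosome 4 with 5 of 24 and 102 of 204. The 3 exceptions were chromosomes 6, 13 and 16, with 14 to 24 sharp peaks each. For crowded windows the difference was negative on 15 autosomes, with a mean of -4.71 ± 7.16 points. It was positive on chromosomes 5, 13 and 15, and chromosome 16 had no peak of either group in a crowded window. On chromosome 11, 46.4% of sharp and 60.9% of wide peaks lay in crowded windows, whereas on chromosome 5 the shares were 75% and 64.7%.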

How the data were processed

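CTCF ChIP-seq and input libraries of mouse hippocampus (2 each) were combined by the authors into 1 peak list. The submitters' processing notes name build mm9, MACS2 version 2.0.10.20131216 and cutadapt. For the aligner, duplicate handling and calling threshold, nothing was given in the sources used. Each peak has a deposited whole-number score whose scaling is not stated, so the score only described and filtered peaks within the list. Read depth is unknown.

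Starts were counted from 1, and widths are end minus start of the deposited intervals. Distances used midpoints and windows a 1 Mb grid from position 1. Shares have Wilson and differences Newcombe 95% intervals (SciPy 1.17.1). No p-value was computed, since the list gives no value per library. The midpoint distances and the plain spread over chromosomes were tested on lists with known answers. The gaps between edges, the limits on which neighbours count and the spread standardised to score bands were not. For the window counts, only their sum was checked against the number of peaks.

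The members, comparisons and limits were chosen with earlier results of these data known. Named regions were the 8 highest-scoring sharp peaks, the highest-scoring at the smallest width (there were none), the 5 most isolated, the 5 closest pairs, the 6 windows with most sharp peaks and the 4 with the highest share among windows with 10 or more peaks of the range. The 4 fullest windows given for contrast, and single chromosomes, were chosen after their values were seen. The available gene and promoter tables are on GRCm38.p6 and were not used.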

Additional observations from a re-analysis of the deposited data

How the results depend on the processing

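The share of sharp minus wide peaks with a neighbour within 10 kb was -11.2 percentage points and stayed negative under all 13 alternatives, from -20.04 to -2.97. It left its interval under 4 of them: -2.97 within 50 kb, -20.04 with the width limit at the lower quartile, and, among the 3 added after seeing the data, -5.91 against wide peaks of up to 605 bp and -3.94 for gaps of 1 to 10 kb. The cause was not tested. The difference in crowded windows, -6.95 points, ran from -11.2 to -3.35 under 10 alternatives (1 added after seeing the data), all inside its interval. The value nearest to 0 was that for windows with 10 or more peaks, whose own interval included 0. With 20 or more other peaks within 500 kb it was -4.45 points, and against wide peaks of up to 605 bp -4.76. For the fullest 10% of windows by peaks outside the score range it was -4.85. For these values no interval of their own is given, so whether it would include 0 is not shown. The spread over autosomes, 9.02%, became 12.9% with the width limit at the lower quartile, where 129 sharp peaks were left. It was 4.56% at the upper quartile, where 1572 were counted. Under the other 4 alternatives it kept within 6.87 to 11.9%. That range is a Wilson interval treating the 9.02% as a simple share of the 507 sharp peaks. It is a rough guide only, since small counts alone raise the spread above 0. No paired analysis was possible because no library has values of its own in the pooled peaks, which also prevented leaving out a replicate. The planned motif comparison and its alternative were not run, lacking mm9 sequence. With the depth unknown, a weak neighbour that was not called cannot be told from an absent one.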

Other observations

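Peaks of both groups shared many score values. The 507 sharp peaks took 180 of the 406 whole numbers from 163 to 568, and the 2513 wide peaks took 382. The most frequent among sharp peaks were 163 (22 sharp and 78 wide peaks), 172 (16 and 71), 190 (14 and 98) and 181 (13 and 54).

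On chromosome X, which the choice of members left out, 10 of 56 peaks of the score range were 473 bp wide or less (17.9%, Wilson 95% interval 9.9999 to 29.8%). The autosomal share was 16.8%, inside that interval.

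The distal 50% of the chromosome spans held 59.96% of sharp peaks (Wilson 95% interval 55.6 to 64.1%) and 61.6% of wide peaks, a difference of -1.60 percentage points (-6.32 to 2.99). The share varied by chromosome in both groups. It was highest for sharp peaks on chromosome 15 (96.2% of 26, against 79.1% of wide peaks) and chromosome 5 (90.6% of 32, against 78.4%). It was lowest on chromosome 16 (12.5% of 16, against 34.4%) and chromosome 19 (20% of 10, against 36.6%).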
